A study of Mus musculus with 49 samples.

Results

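The lipin family of the mouse has 3 genes, Lpin1, Lpin2 and Lpin3. They were chosen by gene name, matched by Entrez gene ID among the 24475 gene IDs of a skin and a colon count table, and all 3 passed the filter on low counts in both tissues, among 15345 genes tested in skin and 15731 in colon. The rule that chose them names the genes and no measured value, but it was drawn up with results of these tables known, so their p-values describe the fit and support nothing beyond it. All mice belonged to a model of DITRA, deficiency of the interleukin-36 receptor antagonist, on a mixed background of 75% C57BL/6NTac and 25% 129S6/SvEvTac; the labels name no alleles and give no age. Imiquimod (IMQ), which activates a Toll-like receptor, was used to inflame the skin of mice that received an antibody against human IL-36R, the receptor of interleukin-36 (anti-IL-36R, 7 libraries), an antibody to mouse IL-12p40, the subunit shared by interleukin-12 and interleukin-23 (anti-IL-12p40, 7 libraries), or PBS (6 libraries), beside 3 libraries from mice given water and PBS. For colon, mice were given dextran sulfate sodium (DSS), which injures the gut lining, with anti-IL-36R (8 libraries), anti-IL-12p40 (7 libraries) or PBS (6 libraries), beside 5 libraries from mice given water and PBS. The study sequenced messenger RNA to ask what each antibody changes in inflamed tissue. The sample titles carry different numbers, but nothing in the labels says that libraries of a group came from separate animals, so a p-value measures only the spread between these libraries, which may be technical.

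Lipins are phosphatidate phosphatases: they remove the phosphate of phosphatidate and leave diacylglycerol, from which cells make triacylglycerol, phosphatidylcholine and phosphatidylethanolamine. Lipin 1 is the main form of fat and skeletal muscle and, in mouse liver, also works in the nucleus with PGC-1alpha and PPARalpha on genes of fatty acid oxidation. Lipin 2 is abundant in liver and macrophages. Loss of human LPIN2 causes Majeed syndrome, a recessive autoinflammatory disease of bone, blood and skin, and in mouse macrophages lipin 2 restrains the P2X7 receptor and the NLRP3 inflammasome. Lipin 3 is found in the gut among other tissues and shares tasks with lipin 1 in mouse adipose tissue.

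In GRCm38, the assembly that the mm10 build of the files corresponds to, Lpin1 lies on the minus strand of chromosome 12 (16535669 to 16653903 in RefSeq), Lpin2 on the plus strand of chromosome 17 (71183532 to 71249818) and Lpin3 on the plus strand of chromosome 2 (160880670 to 160906000). No other RefSeq gene overlaps Lpin2 or Lpin3. The RefSeq span of Lpin1 overlaps Ntsr2, a neurotensin receptor gene, whose level was at most 0.282 CPM (counts-per-million units) in any skin library and at most 0.0707 CPM in any colon library. Lpin1 had whole-number counts in all 23 skin and 26 colon libraries, whereas Lpin2 was not whole in 10 skin and 9 colon libraries and Lpin3 in 16 skin and 11 colon libraries, which means that some of their reads were divided between genes by the estimation. The rounded counts of the 3 genes per library were 265 to 2425 in skin and 184 to 1585 in colon.

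Lpin2 was the member whose level changed, so its start regions from RefSeq (GRCm38.p6) are shown. Each window runs from 250 bases before a transcript start to 50 after it, on the plus strand. Capitals in the first window (chr17:71183282-71183581) mark an E-box, CACGTG, and capitals in the second (chr17:71183728-71184027) mark a match to the kB-type motif GGGNNTTCC.
Lpin2 window 1: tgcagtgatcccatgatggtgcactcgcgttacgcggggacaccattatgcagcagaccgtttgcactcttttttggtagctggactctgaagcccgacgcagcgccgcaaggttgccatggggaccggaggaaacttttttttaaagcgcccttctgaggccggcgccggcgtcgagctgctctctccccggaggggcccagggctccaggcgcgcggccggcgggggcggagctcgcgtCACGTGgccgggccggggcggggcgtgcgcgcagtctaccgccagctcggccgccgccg
Lpin2 window 2: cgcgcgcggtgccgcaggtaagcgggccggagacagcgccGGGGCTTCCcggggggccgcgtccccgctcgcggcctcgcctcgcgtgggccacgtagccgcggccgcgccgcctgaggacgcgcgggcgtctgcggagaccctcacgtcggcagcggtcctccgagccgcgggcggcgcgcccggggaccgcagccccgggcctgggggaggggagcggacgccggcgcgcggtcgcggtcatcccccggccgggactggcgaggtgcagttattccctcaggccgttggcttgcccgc
Both strands were searched for these motifs and for the STAT-type motif TTCNNNGAA; no window of the lipin genes held more than 1 match. The E-box stands in 7.15% of 32851 RefSeq windows of this length, the kB-type motif in 5.82% and the STAT-type motif in 8.3%. A further Lpin2 window (chr17:71204404-71204703) and the only Lpin1 window (chr12:16610917-16611216) held none of the motifs. This Lpin1 window lies inside the RefSeq span of the gene, and the outer end of the span at 16653903 was not searched. The first of the Lpin3 windows also held an E-box, and the other held none. The windows of Lpin2 were 68.7%, 80.7% and 45.0% G or C. A match is a description of the letters and not a site of binding.

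In skin, Lpin2 was high in every IMQ library given PBS, lower under either antibody and lowest in water controls. Its level is given in CPM, scaled by the library total and an edgeR TMM factor. Under IMQ with anti-IL-36R it was 54.3 CPM at the lowest, 66.2 at the median and 111 at the highest of 7 libraries. Under IMQ with anti-IL-12p40 it was 45.1, 57.5 and 65.5 CPM at the same marks of 7 libraries. Under IMQ with PBS it was 114, 123 and 164 CPM over 6 libraries. The 3 water libraries had 41.6, 32.5 and 29.5 CPM. The highest anti-IL-36R library, replicate 7, came close to the lowest IMQ library given PBS, and no anti-IL-12p40 library came near either. The ranges of the antibody groups overlapped each other, and neither reached the water controls.

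**Figure D1:**
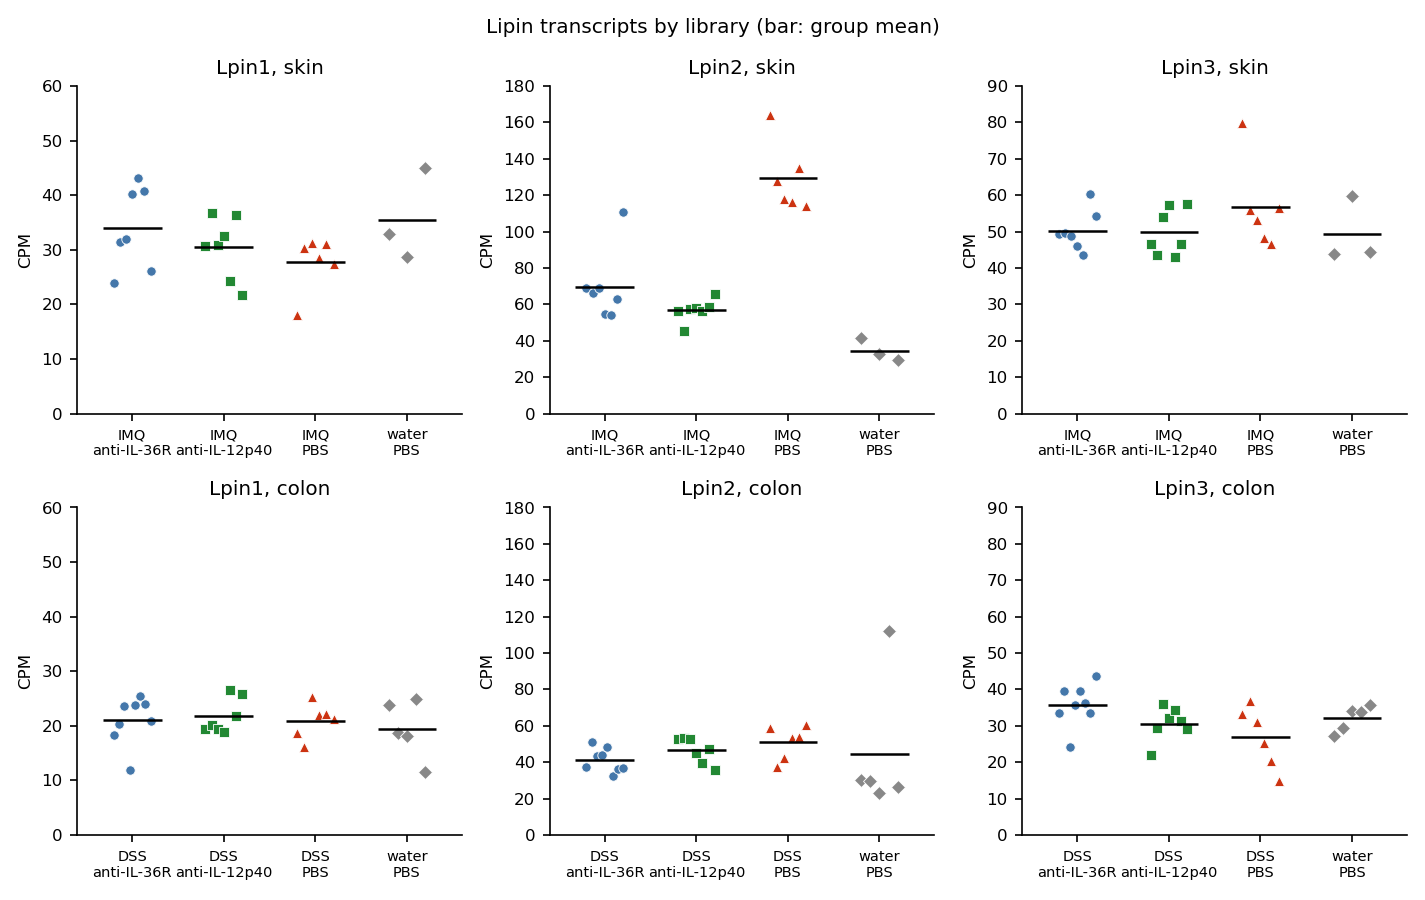
CPM (vertical axes) of Lpin1, Lpin2 and Lpin3 (columns) in skin (top) and colon (bottom), with 1 point per library and a bar at each group mean. In skin the 6 IMQ libraries given PBS sit between 114 and 164 CPM of Lpin2, above all other groups, while Lpin1 and Lpin3 overlap between groups; in colon 1 water library of Lpin2 stands at 112 CPM.

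Lpin2 averaged 129 ± 19.1 CPM under IMQ with PBS and 34.5 ± 6.3 CPM in water controls (SD, n = 6 and 3), a log2 fold change of 1.90 ± 0.192 (SE), or 3.74-fold, and edgeR's quasi-likelihood test gave an adjusted p of 8.55e-06. It was the only member called, at an adjusted p under 0.05, in a comparison in which 33.0% of genes were called. The libraries of the groups did not overlap, as for 26.7% of genes. Under anti-IL-36R the Lpin2 level averaged 69.5 ± 19.3 CPM, against 129 ± 19.1 CPM with PBS (SD, n = 7 and 6). It fell by 0.89 ± 0.136 on the log2 scale (edgeR adjusted p = 0.00181), where 4.21% of genes were called, 0.919% as lower, and 1.34% did not overlap. Under anti-IL-12p40 it averaged 56.8 ± 6.03 CPM (SD, n = 7) and fell by 1.19 ± 0.137 on the log2 scale against PBS (edgeR adjusted p = 5.82e-05), where 8.8% of genes were called, 3.49% as lower, and 3.77% did not overlap. These comparisons share the 6 IMQ libraries given PBS. No other member was called in either.

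Both antibody groups stayed above water in Lpin2. The log2 fold change of anti-IL-36R against water was 1.01 ± 0.18 (edgeR adjusted p = 0.00158), where 13.1% of genes were called and 13% did not overlap. That of anti-IL-12p40 against water was 0.72 ± 0.178 (edgeR adjusted p = 0.0251), where 4.8% of genes were called and 9.44% did not overlap. The second call was lost without water replicate 2 (adjusted p = 0.0716) or replicate 3 (adjusted p = 0.109). Between the antibodies Lpin2 differed by 0.29 ± 0.132 on the log2 scale (edgeR adjusted p = 0.886), where 0.0456% of genes were called, and their ranges overlapped.

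One skin library goes against its group in more than Lpin2. Anti-IL-36R replicate 7 correlated with the mean of the IMQ libraries given PBS at 0.9861 and with the mean of the other libraries of its own group at 0.9821, in log2 CPM over all genes tested. Its 10 neutrophil markers, whose make-up is given below, summed to 12690 CPM, against 3241 to 7404 CPM in the other anti-IL-36R libraries. Without it Lpin2 fell by 1.04 ± 0.104 on the log2 scale under anti-IL-36R (edgeR adjusted p = 1.54e-05), the rise over water was 0.86 ± 0.132 (adjusted p = 0.000969), and the difference between the antibodies was 0.14 ± 0.0992 (adjusted p = 1). Of the 23 skin libraries, 3 correlated best with a group other than their own, namely anti-IL-36R replicates 3 and 7 and anti-IL-12p40 replicate 5. The numbers in the sample titles place IMQ PBS replicates 1 to 3 beside the water libraries, replicates 4 to 6 among the anti-IL-36R libraries, and the anti-IL-12p40 libraries in a run of their own. Against IMQ PBS replicates 4 to 6 alone Lpin2 changed by -0.80 ± 0.164 with anti-IL-36R and -1.11 ± 0.163 with anti-IL-12p40, and against replicates 1 to 3 alone by -0.99 ± 0.169 and -1.28 ± 0.168, all on the log2 scale. For anti-IL-12p40 the run and the antibody cannot be told apart. By these numbers no water library lies among the anti-IL-36R libraries. Run and treatment therefore cannot be told apart for anti-IL-36R against water or between the antibodies either.

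Lpin1 was called in no skin comparison. Its level ran from 24 to 43.1 CPM with a median of 32 CPM under anti-IL-36R, from 21.8 to 36.8 CPM with a median of 30.8 CPM under anti-IL-12p40 and from 18 to 31.3 CPM with a median of 29.4 CPM under IMQ with PBS. The water libraries had 32.8, 28.7 and 45.0 CPM. The ranges of all 4 groups overlapped. The log2 fold change was -0.36 ± 0.2 for IMQ with PBS against water (edgeR adjusted p = 0.17), 0.29 ± 0.16 for anti-IL-36R against PBS (adjusted p = 0.3) and 0.13 ± 0.159 for anti-IL-12p40 against PBS (adjusted p = 0.647). The IMQ replicate 1 given PBS had the lowest Lpin1 of all skin libraries, 18 CPM, and also the lowest adipocyte marker sum, 285 CPM over 12 markers. Water replicate 3 had the highest Lpin1, 45.0 CPM, and the highest skeletal muscle marker sum, 7416 CPM over 11 markers. The adipocyte sum was 525 to 962 CPM under anti-IL-36R, 638 to 969 under anti-IL-12p40, 285 to 1012 under PBS and 613 to 1154 in water controls, and the muscle sum 737 to 3260, 733 to 4018, 1163 to 3071 and 3161 to 7416 CPM in the same groups. Their part in the Lpin1 level was not tested.

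Lpin3 was also called in no skin comparison. It ran from 43.5 to 60.3 CPM with a median of 49.3 CPM under anti-IL-36R, from 43.0 to 57.7 CPM with a median of 46.7 CPM under anti-IL-12p40 and from 46.5 to 79.8 CPM with a median of 54.4 CPM under IMQ with PBS. The water libraries had 43.9, 59.8 and 44.5 CPM. All groups overlapped, and IMQ PBS replicate 1, at 79.8 CPM, lay above all other skin libraries. The log2 fold change was 0.20 ± 0.148 for IMQ with PBS against water (edgeR adjusted p = 0.304), -0.17 ± 0.115 for anti-IL-36R against PBS (adjusted p = 0.4) and -0.19 ± 0.115 for anti-IL-12p40 against PBS (adjusted p = 0.326).

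Marker sums of some other cell types changed along with Lpin2 in skin. In bulk samples, fewer cells of a type and less RNA per cell cannot be told apart. The summed level of 10 neutrophil markers, none of them at 0 throughout, was 3241 to 12690 CPM under anti-IL-36R, 1025 to 5313 CPM under anti-IL-12p40, 8206 to 16733 CPM under IMQ with PBS and 408 to 2695 CPM in water controls. The summed level of 8 sebaceous gland markers, also with none at 0 throughout, was 322 to 772, 295 to 684, 139 to 325 and 338 to 670 CPM in the same groups. Of these 8 genes, 8 fell under IMQ with PBS against water, with a median log2 fold change of -1.92 against -0.03 over all genes; 17.5% of all genes were called lower. With anti-IL-36R 6 of them rose against PBS, and 8 without replicate 7, and with anti-IL-12p40 5 rose, where 3.29% and 5.32% of all genes were called higher. Macrophage marker sums were 1149 to 1766, 1093 to 1950, 611 to 1727 and 532 to 1105 CPM. The 611 CPM belonged to IMQ PBS replicate 1. Of 10 macrophage markers 7 rose and 0 fell under IMQ with PBS (median log2 fold change 1.08), where 15.5% of all genes were called higher. Against PBS 0 of the 10 were called with anti-IL-36R (median 0.11) or anti-IL-12p40 (median -0.06), where 4.21% and 8.8% of genes were called. Keratinocyte marker sums were 34514 to 57857, 45843 to 62356, 37939 to 75803 and 41353 to 70474 CPM, with all groups overlapping. The keratinocyte sum hides opposite changes: 5 of its 10 markers rose and 1 fell under IMQ with PBS, where 15.5% of all genes were called higher and 17.5% lower. Krt14 averaged 17780 CPM there and 7202 CPM in water controls, and Krt10 4905 and 16467 CPM. The neutrophil sum was mostly S100a9 and S100a8 under IMQ with PBS, where they averaged 7251 and 3942 CPM and the median sum was 10819 CPM. Of 9 neutrophil markers tested, 9 rose under IMQ with PBS against water. With anti-IL-36R 0 of the 9 were called against PBS (median log2 fold change -0.77), and 3 had an unadjusted edgeR p under 0.05. With anti-IL-12p40 3 fell (median -0.66), where 3.49% of all genes were called lower, and 3 had an unadjusted p under 0.05. Between the antibodies 0 of the 9 were called. The part of these cell types in the Lpin2 level was not tested.

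**Figure D2:**
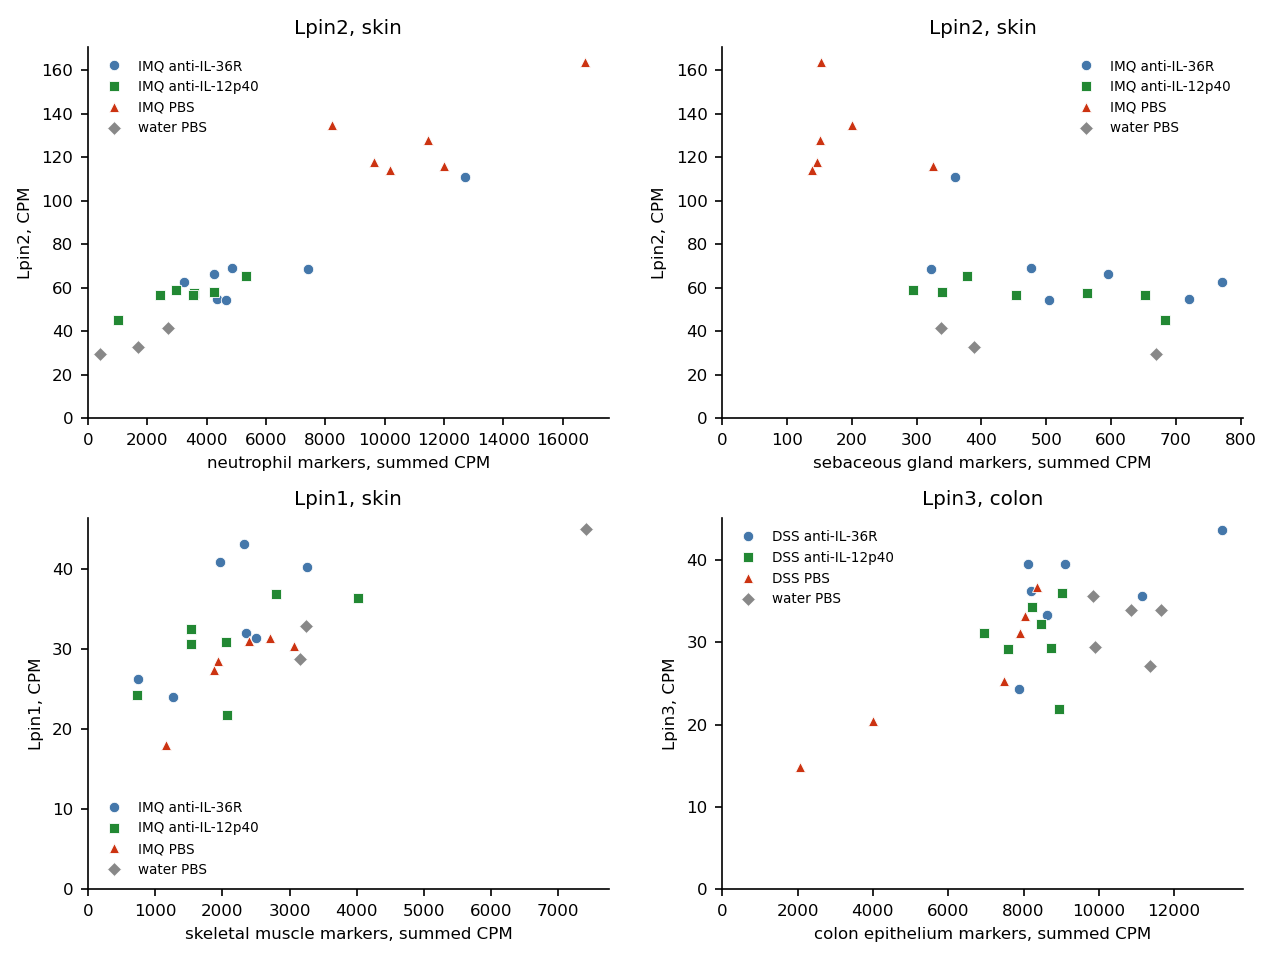
Lipin CPM (vertical axes) against summed CPM of marker genes (horizontal axes), 1 point per library: Lpin2 in skin against neutrophil and against sebaceous gland markers, Lpin1 in skin against skeletal muscle markers, and Lpin3 in colon against colon epithelium markers. The anti-IL-36R library at 111 CPM of Lpin2 lies among the IMQ libraries given PBS on the neutrophil axis. The neutrophil sum under IMQ with PBS is mostly S100a9 and S100a8. The DSS PBS libraries at 20.4 and 14.8 CPM of Lpin3 have the lowest epithelium sums, 4006 and 2078 CPM.

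The tissue labels matched their markers. The 10 keratinocyte markers summed to 34514 to 75803 CPM in skin and to at most 192 CPM in 25 of 26 colon libraries, the exception being DSS PBS replicate 6 at 2903 CPM, while the 12 colon epithelium markers summed to 507 to 836 CPM in skin and 2078 to 13269 CPM in colon. Of the 26 colon libraries, 11 correlated best with a group other than their own.

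In colon the Lpin2 result turned on 1 water library. Lpin2 was 32.3 CPM at the lowest, 40.4 at the median and 51.3 at the highest of 8 DSS libraries with anti-IL-36R. It was 35.5, 47.3 and 53.3 CPM at the same marks with anti-IL-12p40, and 37.3, 53.8 and 60.2 CPM in DSS libraries given PBS. The water libraries had 30.2, 29.9, 22.9, 112 and 26.6 CPM. Replicate 4, at 112 CPM, was above every DSS library, and the other 4 were below every DSS library of any group. With all libraries Lpin2 averaged 51.1 ± 9.18 CPM under DSS with PBS and 44.3 ± 38 CPM in water controls (SD, n = 6 and 5), a log2 fold change of 0.21 ± 0.283 (edgeR adjusted p = 0.615). Without water replicate 4 it was 0.90 ± 0.152 (adjusted p = 0.000119). The same library decided the comparisons of the antibody groups with water: the log2 fold change of anti-IL-36R was -0.10 ± 0.265 (adjusted p = 0.852) with it and 0.59 ± 0.144 (adjusted p = 0.0129) without it, and that of anti-IL-12p40 was 0.08 ± 0.273 (adjusted p = 0.879) with it and 0.77 ± 0.147 (adjusted p = 0.00102) without it. With all libraries edgeR called none of the 3 members in these comparisons, in which 32.2% (DSS with PBS), 9.92% (anti-IL-36R) and 17.2% (anti-IL-12p40) of genes were called against water, and no member had an unadjusted p under 0.05. Weighting the libraries in limma-voom, with replicate 4 kept, gave 0.76 ± 0.174 for DSS with PBS against water (adjusted p = 0.00155).

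Colon water replicate 4 stood apart in part of the Hox genes, which mark position along the gut. Hoxb6 was 29.7 CPM there, against 0.375 to 3.51 CPM in the other 25 colon libraries. Hoxb8 was 20.4 CPM, against 0.23 to 1.59 CPM. Hoxb13, a gene of posterior body levels, was 1.84 CPM, against 45.8 to 400 CPM, and Hoxd13 was 0.212 CPM, against 5.35 to 170 CPM. Of the other genes listed, Hoxb3, Hoxb4, Hoxb5 and Hoxb7 lay above and Hoxd12 below the range of the other libraries, whereas Hoxb2, Hoxa13, Hoxd10 and Hoxd11 lay within it. These genes were chosen after their values were seen. Its smooth muscle marker sum of 14645 CPM was the highest in colon, against 4793 to 11353 CPM in the others, and its neutrophil marker sum of 7.28 CPM the lowest, against 51.1 to 85.5 CPM in the other water libraries. Its skeletal muscle marker sum of 52.0 CPM was also the highest in colon, and its colon epithelium sum of 11647 CPM lay close to the 9841 to 11350 CPM of the other water libraries. The part of sampling position in its Lpin2 level was not tested.

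Lpin2 was called with neither antibody in DSS colon. Anti-IL-36R gave 41.2 ± 6.53 CPM, against 51.1 ± 9.18 CPM with PBS (SD, n = 8 and 6), a log2 fold change of -0.31 ± 0.251 (edgeR adjusted p = 0.476), where 6.6% of genes were called. Anti-IL-12p40 gave 46.7 ± 6.97 CPM (SD, n = 7) and -0.13 ± 0.259 against PBS (adjusted p = 0.88), where 1.15% of genes were called. Between the antibodies the difference was -0.18 ± 0.241 (adjusted p = 1), where edgeR called 0 genes of 15731 (0.0%), with 552 at p under 0.05 before adjustment. Groups overlapped in all 3 comparisons. Leaving out DSS PBS replicates 5 and 6 gave -0.24 ± 0.291 and -0.05 ± 0.3 for the antibodies.

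The change in Lpin2 with disease was larger in skin than in colon in a joint fit of all 49 libraries over 16818 genes. IMQ with PBS against water, minus DSS with PBS against water, was 1.74 ± 0.369 on the log2 scale (edgeR adjusted p = 0.00063), and 1.03 ± 0.236 (adjusted p = 0.00133) without colon water replicate 4. Of the 3 members Lpin2 was the one called, where 22.3% of genes were called; the difference was -0.42 ± 0.274 for Lpin1 (adjusted p = 0.282) and 0.49 ± 0.246 for Lpin3 (adjusted p = 0.147). The anti-IL-12p40 effect in skin minus that in colon was -1.08 ± 0.304 for Lpin2 (adjusted p = 0.0496), where 1.87% of genes were called, and the call was lost with DESeq2's size factors (adjusted p = 0.0546) or without the filter on low counts (adjusted p = 0.0645). The anti-IL-36R difference of -0.61 ± 0.299 did not pass (adjusted p = 0.249), where 5.14% of genes were called, nor did that of Lpin3, -0.60 ± 0.204 (adjusted p = 0.0742). Inducer, tissue and table change together in these differences and cannot be told apart.

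**Figure D3:**
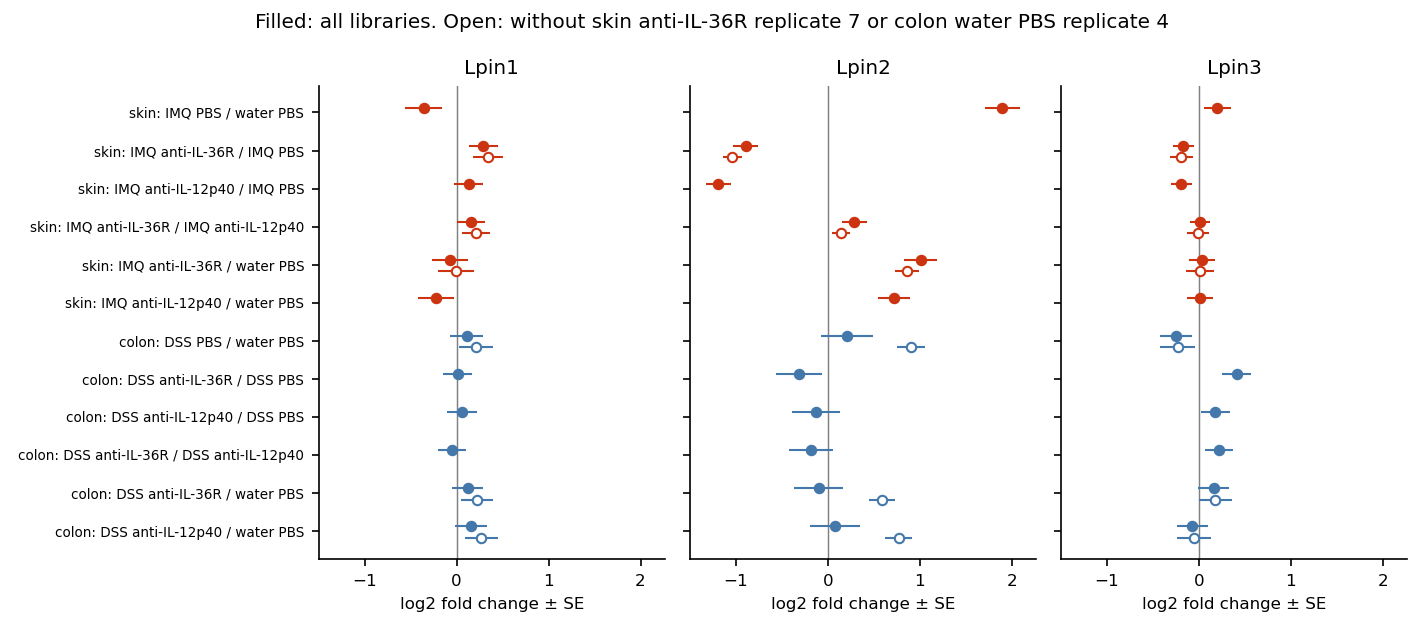
Log2 fold change ± SE (horizontal axis) of each lipin gene (panels) in the 12 comparisons, written as first group over second; filled points use all libraries, open points leave out skin anti-IL-36R replicate 7 or colon water replicate 4 where it enters the comparison. Lpin2 in skin had an edgeR adjusted p under 0.05 in all but the comparison of the antibodies, where it lies at 0.29 ± 0.132. Its colon points against water move to 0.90, 0.59 and 0.77 without the water library.

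Lpin1 in colon was called in no comparison. It was 11.9 to 25.4 CPM with a median of 22.3 CPM under anti-IL-36R, 18.8 to 26.6 CPM with a median of 20.2 CPM under anti-IL-12p40, 16.1 to 25.3 CPM with a median of 21.6 CPM under DSS with PBS and 11.5 to 24.9 CPM with a median of 18.6 CPM in water controls. Every group overlapped the others. The log2 fold change of DSS with PBS against water was 0.11 ± 0.178 (edgeR adjusted p = 0.682), and those of the antibodies against PBS were 0.01 ± 0.159 for anti-IL-36R (adjusted p = 0.975) and 0.06 ± 0.163 for anti-IL-12p40 (adjusted p = 0.928).

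Lpin3 in colon was 24.3 to 43.7 CPM with a median of 35.9 CPM under anti-IL-36R and 21.9 to 36 CPM with a median of 31.2 CPM under anti-IL-12p40. The DSS libraries given PBS had 33.2, 36.8, 31.1, 25.3, 20.4 and 14.8 CPM, and the water libraries 27.2, 29.5, 34.0, 33.9 and 35.6 CPM. Replicates 5 and 6 of the PBS group were the lowest of all colon libraries. Their 12 colon epithelium markers summed to 4006 and 2078 CPM, against 6955 to 13269 CPM in every other colon library. The log2 fold change of DSS with PBS against water was -0.25 ± 0.176 (edgeR adjusted p = 0.288) and -0.01 ± 0.144 without both replicates. Anti-IL-36R against PBS gave 0.41 ± 0.158 (edgeR adjusted p = 0.121), 0.16 ± 0.132 without both replicates and 0.52 ± 0.159 without PBS replicate 2, where it passed (adjusted p = 0.0436). Anti-IL-12p40 against PBS gave 0.18 ± 0.162 (adjusted p = 0.696), with the sign turned to -0.06 ± 0.134 without both replicates. The part of the epithelium in the Lpin3 level was not tested.

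Levels of different genes can be set side by side only per length. CPM was therefore divided by the median length in kilobases of the coding transcripts of each gene in GENCODE M21, 4114 bases for Lpin1, 4167 for Lpin2 and 3411.5 for Lpin3, and each gene's share of the sum of the 3 was taken in each library. Lpin2 made up 41.6 ± 6.82% of this sum in skin with anti-IL-36R (SD, n = 7), 38.3 ± 3.12% with anti-IL-12p40 (SD, n = 7), 56.9 ± 2.38% under IMQ with PBS (SD, n = 6) and 26.4 ± 5.2% in water controls (SD, n = 3). The lowest share under IMQ with PBS, 54.1%, lay below that of 1 anti-IL-36R library at 54.5%. Lpin3 made up 30.4 ± 3.22% under IMQ with PBS and 46.0 ± 7.17% in water skin, where it was the largest part. Lpin1 was the smallest part under IMQ with PBS at 12.7 ± 3.09%, and 27.6 ± 6.98% in water skin. In colon, Lpin1 stayed at 20.1% to 20.9% on average in all 4 groups, and the Lpin2 share was 38.8 ± 4.98% with anti-IL-36R, 44.0 ± 6.04% with anti-IL-12p40, 48.6 ± 8.39% under DSS with PBS and 38.5 ± 13.8% in water controls, where 1 library reached 62.7%. The shares sum to the whole, so a higher share of 1 gene lowers the others. They also depend on the length used. The coding transcripts ran from 3100 to 5581 bases for Lpin1, 1586 to 5640 for Lpin2 and 3215 to 3470 for Lpin3. Which transcripts these tissues made was not measured, so the order of the genes within a group is uncertain.

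**Figure D4:**
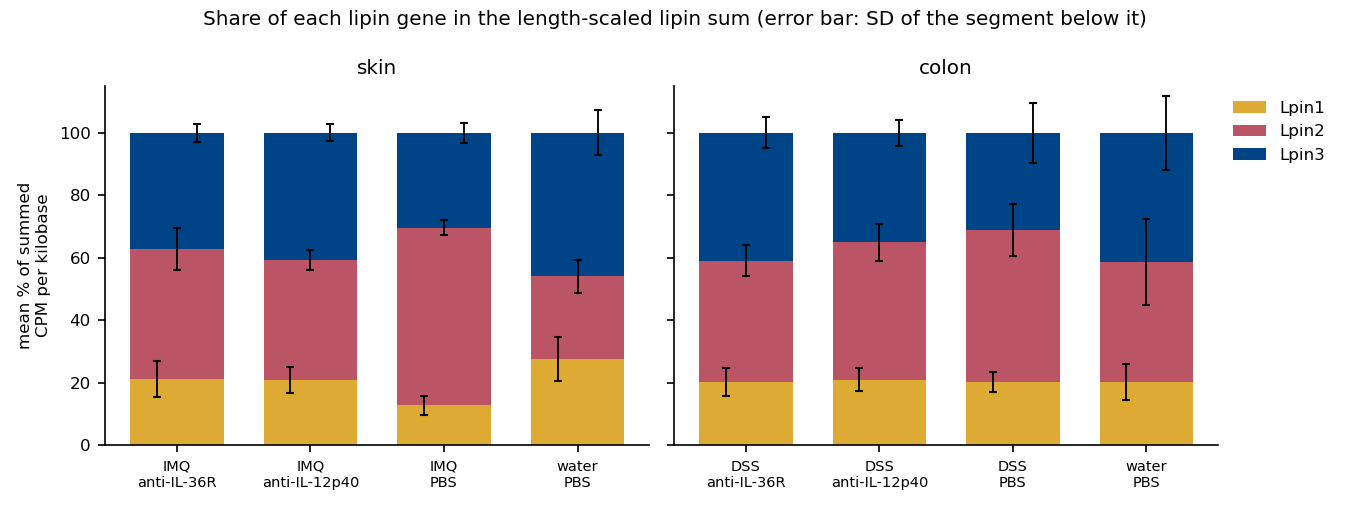
Mean share (%, vertical axis) of Lpin1, Lpin2 and Lpin3 in the sum of their CPM per kilobase, by group in skin and colon; each error bar is the SD of the segment whose top it crosses. The Lpin2 segment is 56.9% in IMQ skin given PBS and 26.4% in water skin.

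Ordered by median over the 8 groups, Lpin2 ran from IMQ skin with PBS (123 CPM) through skin with anti-IL-36R and with anti-IL-12p40 and the 3 DSS colon groups to water skin (32.5 CPM) and water colon (29.9 CPM). Only the top step was clear of its neighbour; each later pair of neighbours overlapped. Lpin3 medians were 44.5 to 54.4 CPM in the 4 skin groups and 28.2 to 35.9 CPM in the 4 colon groups. The libraries of the tissues overlapped: skin with anti-IL-36R reached down to 43.5 CPM and skin with anti-IL-12p40 to 43.0 CPM, and DSS colon with anti-IL-36R reached up to 43.7 CPM. Lpin1 neighbours overlapped at every step.

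The genes whose levels followed Lpin2 most closely over the 23 skin libraries were Sprr2e, a small proline-rich protein of the cornified envelope (Pearson r = 0.96, Spearman rho = 0.90), Upp1, a uridine phosphorylase (0.95 and 0.89), and Igf2bp2, an RNA-binding protein (0.95 and 0.89). All libraries share the group structure: after group means were removed the same pairs had r = 0.82, 0.77 and 0.75, and Gnb1, Lnx2 and Itgb6, named after their values were seen, came first instead. Lpin1 was followed most closely by Gstz1, Tns1 and Adrb3, the adipocyte beta-adrenergic receptor, at r = 0.89, 0.88 and 0.88, and Lpin3 by Dedd2, Sidt2 and Prdx5 at 0.91, 0.91 and 0.88. In the 26 colon libraries the genes nearest to Lpin1 were the adipocyte genes Car3, Cidec and Plin1 at r = 0.75, 0.74 and 0.71, and those nearest to Lpin3 were Pgap6, Ube3b and Cant1 at 0.90, 0.90 and 0.89. The genes nearest to Lpin2 in colon were B4galnt1, Inpp1 and Etv5 at 0.86, 0.83 and 0.83, and without water replicate 4 they were Ube2h, Baz1a and Tnfaip8, also named after their values were seen, at 0.88, 0.86 and 0.86. Among the members themselves, Lpin1 and Lpin2 had r = -0.52 in skin and 0.25 in colon, Lpin2 and Lpin3 had 0.45 and -0.25, and Lpin1 and Lpin3 had -0.56 and -0.18. These values compare each gene with 12340 others in skin and 12674 in colon and carry no test.

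The enzymes before and after lipin moved in part opposite to Lpin2 in skin. Gpam, the mitochondrial glycerol-phosphate acyltransferase that starts the pathway, averaged 40.9 CPM under IMQ with PBS and 81.1 CPM in water controls and fell by 0.99 ± 0.231 on the log2 scale (edgeR adjusted p = 0.00323). It rose by 0.66 ± 0.189 with anti-IL-36R against PBS (adjusted p = 0.0498) and missed the threshold at 0.60 ± 0.189 with anti-IL-12p40 (adjusted p = 0.0501). Of 9 genes tested in the list of glycerol phosphate and lysophosphatidate acyltransferases, 5 fell and 0 rose under IMQ with PBS. Their median log2 fold change was -0.27 against -0.03 over all genes, of which 17.5% were called lower. With each antibody 2 rose and 0 fell, with a median of 0.17 each, against 0.00 and 0.01 over all genes; 3.29% of genes were called higher with anti-IL-36R and 5.32% with anti-IL-12p40. The members that moved most were Agpat4, with -1.69 ± 0.27, and Agpat5, with -1.46 ± 0.245, under IMQ. Dgat1, which turns diacylglycerol into triacylglycerol, had a log2 fold change of -0.30 ± 0.191 under IMQ (adjusted p = 0.229) and rose by 0.63 ± 0.153 with anti-IL-36R (adjusted p = 0.0221). Its value with anti-IL-12p40 was 0.44 ± 0.152 (adjusted p = 0.0724). Dgat2 averaged 195 CPM under IMQ with PBS and 248 CPM in water controls. It was not called under IMQ (-0.35 ± 0.159), with anti-IL-36R (0.10 ± 0.127) or with anti-IL-12p40 (0.09 ± 0.127). Agpat2 was not called either, at -0.36 ± 0.22, -0.21 ± 0.176 and -0.22 ± 0.176 in the same order. Chpt1, from the list of phosphatidylcholine and phosphatidylethanolamine synthesis, had a log2 fold change of -0.82 ± 0.22 under IMQ (edgeR adjusted p = 0.0081). It was called with neither antibody. In its list 1 of 10 genes tested fell and 2 rose under IMQ, where 33.0% of all genes were called.

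The other phosphatidate phosphatases of the surface membrane, Plpp1, Plpp2 and Plpp3, were not called in these 3 skin comparisons. Pld1 and Pld2, phospholipases that release phosphatidate from phosphatidylcholine, rose by 0.70 ± 0.16 and 0.51 ± 0.188 under IMQ, where 15.5% of genes were called higher, and they were 2 of 15 genes tested in their list. Ctdnep1, whose product removes phosphates from lipin 1 and lets it work at membranes, rose by 0.16 ± 0.0587 under IMQ (adjusted p = 0.0456), and its partner Cnep1r1 had a value of -0.07 ± 0.107 (adjusted p = 0.644). Of 10 lipin regulators 1 rose and 4 fell under IMQ (median log2 fold change -0.14 against -0.03 over all genes, of which 15.5% were called higher and 17.5% lower). Ppara at -1.86 ± 0.413 and Ppargc1a at -1.50 ± 0.345 were among those that fell. Of 13 fatty acid oxidation genes under PPARA and PGC-1, 2 fell and 1 rose under IMQ (median -0.17), where 33.0% of all genes were called. With either antibody 0 of the 13 were called against PBS. The 12 lipolysis and lipid droplet genes tested held 3 that fell under IMQ and 9 that were not called (median log2 fold change -0.64), near the 17.5% of all genes called lower. The same number rose with each antibody: Mgll, monoglyceride lipase, Cidea and Plin2. Of all genes, 3.29% were called higher with anti-IL-36R and 5.32% with anti-IL-12p40. Mgll averaged 627 CPM with anti-IL-36R, 606 CPM with anti-IL-12p40 and 158 CPM with PBS under IMQ. Of the 12 tested SREBP-1 target genes of fatty acid synthesis, 4 fell and 1 rose under IMQ (median log2 fold change -0.31), where 33.0% of all genes were called. With each antibody 3 rose, Elovl6, Scd1 and Acacb, beside the same 3.29% and 5.32% of all genes. Several of these genes are also made in sebaceous glands, whose marker sums are given above, and the part of the glands was not tested.

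**Figure D5:**
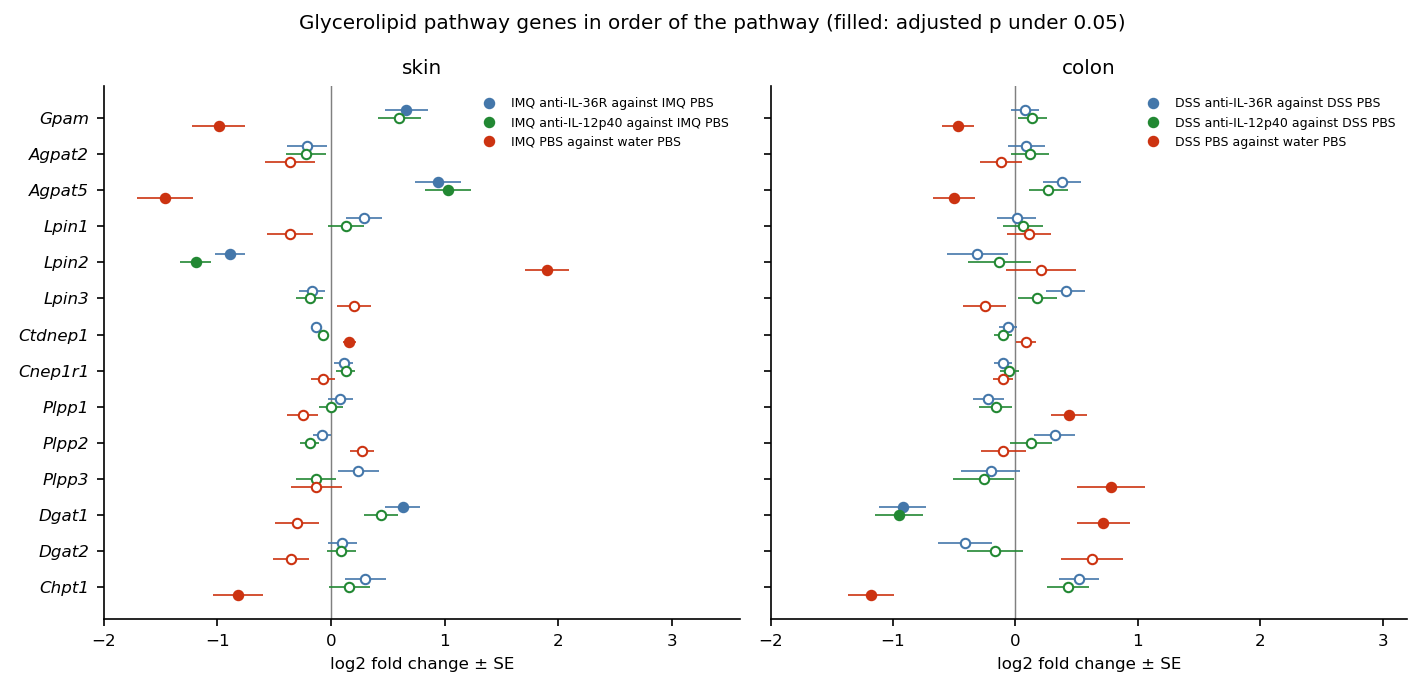
Log2 fold change ± SE (horizontal axis) of genes of the glycerolipid pathway, listed from the first acylation to the last steps, in skin and colon; colours are the anti-IL-36R, anti-IL-12p40 and disease comparisons, and filled points have an edgeR adjusted p under 0.05. In skin Lpin2 lies at 1.90 in the disease comparison, while Gpam and Agpat5 lie at -0.99 and -1.46.

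In colon the enzymes around lipin moved in both directions under DSS. Of the 9 acyltransferases 3 fell and 0 rose under DSS with PBS, where 14.7% of all genes were called lower and 32.2% in either direction; 5 were called without water replicate 4 and 1 without DSS PBS replicates 5 and 6. Gpam fell by 0.47 ± 0.13 under DSS with PBS against water (edgeR adjusted p = 0.00818), with 23.9 CPM under DSS and 33.0 CPM in water controls, and was called with neither antibody (0.08 ± 0.117 with anti-IL-36R, adjusted p = 0.708, and 0.14 ± 0.12 with anti-IL-12p40, adjusted p = 0.684). Dgat1 rose by 0.72 ± 0.218 under DSS (adjusted p = 0.0138) and changed by -0.92 ± 0.191 with anti-IL-36R and -0.95 ± 0.198 with anti-IL-12p40 (adjusted p = 0.00384 and 0.0199). Without DSS PBS replicates 5 and 6 Dgat1 was called in none of these 3 comparisons. Chpt1, from the list of phosphatidylcholine and phosphatidylethanolamine synthesis, averaged 47.3 CPM under DSS with PBS and 107 CPM in water controls. Its log2 fold change was -1.18 ± 0.186 (edgeR adjusted p = 3.82e-05), and it was called with neither antibody. In its list 3 of 11 genes fell and 0 rose under DSS, where 14.7% of genes were called lower. Plpp1 and Plpp3 rose under DSS by 0.44 ± 0.147 and 0.78 ± 0.276, where 17.6% of genes were called higher; the 5 calls in their list became 3 without DSS PBS replicates 5 and 6. Of the 13 fatty acid oxidation genes under PPARA and PGC-1, with which lipin 1 works in mouse liver, 10 fell and 0 rose under DSS (median log2 fold change -0.59 against -0.03 over all genes; 14.7% of genes called lower), among them Pdk4 at -1.66 ± 0.484 and Acadm at -0.92 ± 0.168. The count was 8 without water replicate 4 and 7 without DSS PBS replicates 5 and 6. Pdk4 varied widely in water controls, at 11.6 ± 13.8 CPM, against 3.67 ± 0.626 CPM under DSS with PBS (SD, n = 5 and 6), and these groups overlapped. In the same comparison 3 of 12 colon epithelium markers fell (median log2 fold change -0.56; sums of 2078 to 8355 CPM under DSS with PBS and 9841 to 11647 CPM in water colon, without overlap) and 4 of 10 smooth muscle markers fell (median -0.53); their part in these genes was not tested. Ppara and Ppargc1a changed by -1.85 ± 0.331 and -1.51 ± 0.32 on the log2 scale. With either antibody edgeR called 0 of the 13. With anti-IL-36R 6 had an unadjusted p under 0.05 and DESeq2 called 1, limma-voom 0; with anti-IL-12p40 all 3 counts were 0.

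Genes of the NLRP3 inflammasome, which lipin 2 restrains in mouse macrophages, were called in part under disease, Il1b and Nlrp3 among them in both tissues. In skin, 4 of 10 genes of the list rose and 1 fell under IMQ with PBS (median log2 fold change 0.15 against -0.03 over all genes), where 15.5% of all genes were called higher and 17.5% lower. Il1b, interleukin-1 beta, averaged 61.9 CPM under IMQ with PBS and 4 CPM in water controls, a log2 fold change of 3.94 ± 0.781. Nlrp3, the sensor itself, rose by 1.82 ± 0.444, and Il18 fell by 1.22 ± 0.241. With anti-IL-12p40 Il1b fell by 2.21 ± 0.496 and Nlrp3 fell by 1.14 ± 0.317, and Il18 rose by 0.95 ± 0.2, where 8.8% of genes were called. With anti-IL-36R the only call was Il18, which rose by 0.97 ± 0.2, where 4.21% of genes were called, and without replicate 7 there were 3 calls. In colon 3 of the 10 rose and 1, Txnip, fell under DSS with PBS (median log2 fold change 0.32 against -0.03), a share near that of all genes, of which 32.2% were called. Il1b averaged 316 CPM under DSS with PBS and 1.01 CPM in water controls, and Nlrp3 rose by 5.02 ± 0.666. Both fell with each antibody against PBS: the log2 fold change of Il1b was -4.1 ± 0.645 with anti-IL-36R and -2.8 ± 0.643 with anti-IL-12p40, and that of Nlrp3 was -3.1 ± 0.488 and -2.1 ± 0.491. They were the 2 calls of the list with each antibody, where 5.45% of genes were called lower with anti-IL-36R and 1.13% with anti-IL-12p40. Without DSS PBS replicates 5 and 6 the list held 2 calls with anti-IL-36R and 0 with anti-IL-12p40 by edgeR. Neutrophil marker sums ran from 102 to 285 CPM with anti-IL-36R, 65.4 to 404 CPM with anti-IL-12p40, 235 to 3410 CPM with PBS and 7.28 to 85.5 CPM in water colon, and their part in these genes was not tested.

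Lpin2 is one of the genes whose mutations cause autoinflammatory disease in humans, and 19 others were tested in skin and 18 in colon. Under IMQ with PBS 9 rose and 0 fell, with a median log2 fold change of 0.50 against -0.03 over all genes, of which 15.5% were called higher. The Lpin2 value of 1.90 ± 0.192 differed from that of Nlrp3 (1.82 ± 0.444) by less than either SE. It was above those of Il10ra (1.08 ± 0.23) and Nod2 (0.96 ± 0.241), and genes with a mean log2 CPM under 1 were not compared. With anti-IL-36R 0 of the 19 were called by edgeR, 3 had an unadjusted p under 0.05, DESeq2 and limma-voom called 1 each, and edgeR called 1 without replicate 7; with anti-IL-12p40 1 fell, Nlrp3. Under DSS with PBS 13 of 18 rose and 0 fell, with a median of 0.86 against -0.03 over all genes, of which 17.6% were called higher, among them Mefv, the gene of familial Mediterranean fever, by 3.71 ± 0.458 and Pstpip1 by 2.80 ± 0.334, and Lpin2 was 0.21 with all libraries and 0.90 without water replicate 4. Of 10 macrophage markers 8 rose and 1 fell in the same comparison (median log2 fold change 1.84; sums of 454 to 1213 CPM under DSS with PBS and 154 to 335 CPM in water colon), and of 10 neutrophil markers 9 rose (median 7.02). The part of these cells in the list was not tested. With anti-IL-36R 8 of the 18 fell, where 5.45% of genes were called lower, but 1 was called without DSS PBS replicates 5 and 6. With anti-IL-12p40 2 fell, where 1.13% of genes were called lower, and edgeR called 0 without those replicates.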

How the data were processed

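Messenger RNA was extracted, purified with Dynabeads and made into strand-specific libraries, per the labels' protocols. The authors deposited 1 table per tissue of expected counts, estimated with RSEM on mm10 per the submitters' processing notes; versions are not given in the sources used here. Expected counts share out reads that fit several genes, and 16.71% of skin and 17.35% of colon values were not whole; they were rounded. Library totals were 14723200 to 19678074 counts in skin and 15081670 to 18663357 in colon. Of 24475 gene IDs, 24375 were matched to a RefSeq symbol.

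The test was edgeR's quasi-likelihood F test (edgeR 4.0.16, R 4.3.3; genes kept by filterByExpr, TMM factors, the 4 groups of a tissue in 1 fit, Benjamini-Hochberg adjustment over all genes in each comparison, threshold 0.05). Standard errors were derived from F (log2 fold change divided by its root). Differences between tissues came from 1 fit of both tables. The code was tested on simulated counts. The members, the gene lists and the tests were chosen with earlier results of these data known. Besides the lipins and the enzymes next to them, the text names genes from the 6 largest called changes per list (mean log2 CPM 1 or more), and the 3 genes with the highest correlation per lipin and tissue, leaving out sex-linked genes, pseudogenes and genes with predicted or clone names. Alternatives were DESeq2 1.42.0 size factors, no filter, the DESeq2 Wald test, limma 3.58.1 voom with sample weights, the compared groups alone, each library left out, and IMQ PBS replicates 1 to 3 or 4 to 6 alone. Leaving out DSS PBS replicates 5 and 6, and leaving libraries out of the joint fit and the list counts, was chosen after seeing the data. Plots used Python 3.11.15 and matplotlib 3.10.9.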

Additional observations from a re-analysis of the deposited data

Results flagged for a closer look

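Within-group spread was examined for 21 combinations of gene and group with 4 to 10 libraries, and 4 had a library far from the others by Dixon's criterion, which chance meets in about 1 of 20 groups. Lpin2 was 111 CPM in skin anti-IL-36R replicate 7, against 54.3 to 69.0 CPM in the other 6 libraries. Lpin2 was 112 CPM in colon water replicate 4, against 22.9 to 30.2 CPM in the other 4. Skin IMQ PBS replicate 1 was flagged in both other genes, with 18 CPM of Lpin1 against 27.4 to 31.3 CPM in the rest of its group and 79.8 CPM of Lpin3 against 46.5 to 56.5 CPM. That library also had the highest neutrophil marker sum in skin, 16733 CPM, the highest keratinocyte sum, 75803 CPM, and the lowest adipocyte sum, 285 CPM.

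The disease effect on Lpin2 differed between tissues by 1.74 on the log2 scale, higher in skin, in a test of the difference itself (edgeR, interaction). The anti-IL-12p40 effect on Lpin2 differed by -1.08, with the larger fall in skin.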

How the results depend on the processing

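No paired analysis was possible because the labels give no replicate numbers shared between groups. Over the 45 results of the 3 lipin genes, 652 of 705 alternative values kept their direction and their side of the threshold, among them every one for Lpin2 in IMQ skin with PBS against water and with either antibody against PBS. Of 700 recounts of the gene lists, 545 stayed within 1.5 times; the causes of the other changes were not tested.

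With limma-voom and sample weights, Lpin2 in colon was 0.76 for DSS with PBS, 0.42 for anti-IL-36R and 0.65 for anti-IL-12p40 against water, all called, and -0.63 for the anti-IL-36R difference between tissues, also called. The same fit turned the sign of uncalled values: Lpin3 in skin between the antibodies (-0.04), Lpin1 in skin with anti-IL-36R against water (0.04), Lpin1 in colon with anti-IL-36R (-0.09) and anti-IL-12p40 (-0.03) against PBS, and Lpin3 in colon with anti-IL-12p40 against water (0.02). Without the filter Lpin1 in colon with anti-IL-36R was -0.01 against PBS, and the anti-IL-12p40 difference of Lpin2 between tissues was -1.06 and not called, as with DESeq2's size factors (-1.07). Without water replicate 4 and DSS PBS replicates 5 and 6, Lpin2 under DSS with PBS was 0.81 against water; without replicates 5 and 6 alone, Lpin3 with anti-IL-12p40 was -0.06 against PBS. Both omissions were chosen after seeing the data.

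Leaving out 1 library at a time gave these ranges where a sign or call changed. In skin against water, they were 0.62 to 0.88 for Lpin2 with anti-IL-12p40, -0.18 to 0.14 for Lpin1 with anti-IL-36R, and for Lpin3 -0.05 to 0.20 with anti-IL-36R and -0.06 to 0.19 with anti-IL-12p40. Lpin3 in skin between the antibodies ran from -0.04 to 0.05. In colon against water, Lpin2 ran from 0.04 to 0.90 for DSS with PBS, -0.27 to 0.59 for anti-IL-36R and -0.09 to 0.77 for anti-IL-12p40, and Lpin1 from -0.03 to 0.21 for DSS with PBS and -0.02 to 0.22 for anti-IL-36R. Against DSS with PBS, Lpin3 ran from 0.26 to 0.52 with anti-IL-36R, and Lpin1 from -0.05 to 0.10 with anti-IL-36R and -0.01 to 0.12 with anti-IL-12p40. Lpin1 between the antibodies ran from -0.09 to 0.04. The Lpin1 values in colon rest on 184 to 485 counts per library, the fewest of the 3 genes.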
